A study of Homo sapiens with 8 samples.

Results

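Gene expression under prednisolone was compared between 2 arrays labelled BTG1 shRNA and 2 arrays labelled control shRNA, which are 4 of the 8 arrays of the series. The arrays were chosen by their titles, and no measured value entered the choice. All 4 came from cells labelled RS4;11, an established leukemia line of B-cell precursors that carries the MLL (KMT2A) to AFF1 fusion, which had been transduced with a vector for the BTG1 shRNA or with a control shRNA vector and exposed to the drug for 8 h. The other 4 arrays hold the same vectors with vehicle in place of the drug, 2 arrays a group, and give the same difference without the drug. Each array reports 17881 transcript clusters, mostly 1 cluster a gene, as log2 expression levels, so that a difference of 1 is a fold of 2. The sources used here give neither the dose nor whether the transduced cells were a clone or a pool. Since the labels do not tie the 2 arrays of a group to separate cultures, the p-values reflect only array-to-array spread, part or all of it possibly technical.

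Prednisolone is a synthetic glucocorticoid. It binds the glucocorticoid receptor, the product of NR3C1, which waits in the cytoplasm in a complex with HSP90 and the immunophilins FKBP4 and FKBP5, then moves to the nucleus and switches genes on or off at response elements. In lymphoid leukemia cells this ends in apoptosis, with the BH3-only protein BIM (BCL2L11) as a main effector, and in some of these cells the receptor also raises its own messenger RNA. BTG1 belongs to the BTG/TOB family of antiproliferative proteins, which bind the CCR4-NOT deadenylase and the arginine methyltransferase PRMT1. The question the design puts to these arrays is how cells with less BTG1 differ once the drug is present.

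BTG1, the gene the shRNA is directed against, read 10.51 and 10.70 on the control arrays and 8.14 and 7.80 on the arrays labelled BTG1 shRNA. Both of the latter lay below both controls. The difference was -2.64 ± 0.20 (standard error of the fit, 2 against 2 arrays), a 6.23-fold lower level, with a limma adjusted p of 0.000107. The cluster also carries the symbol of the non-coding gene LINC01619. Under vehicle BTG1 was lower by a similar size, -2.06, and the change of the difference with the drug, -0.58, did not pass the test (adjusted p = 0.537).

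The lineage markers did not match the cell line label on the arrays labelled BTG1 shRNA. Of 9 measured markers of B-cell precursors, 8 were above the array median on both control arrays and 0 on both arrays labelled BTG1 shRNA, and 8 were lower there. Of 12 measured T-cell markers, 11 were above the median on both arrays labelled BTG1 shRNA, against 4 on both controls, and 11 were higher. The 4 measured markers of MLL-rearranged leukemia were all lower. Markers of myeloid cells (7 measured), of erythroid cells and platelets (5) and of stroma and epithelium (7) gave 0, 0 and 1 call, the last being KRT18. A longer myeloid list of 11 had AIF1 higher by 1.01, and a longer erythroid and platelet list of 7 had GP9 lower (-1.84). AIF1 lost its call under 4 of 15 alternatives and GP9 under 3 of 15. The effect of the shRNA and this lineage difference cannot be told apart in any result here, because all arrays with that label carry it. That holds for the lower BTG1 level as well. In such bulk samples, fewer cells of a type and less RNA per cell cannot be told apart either.

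Across all clusters, 3134 passed an adjusted p of 0.05 (17.5% of those tested). On the arrays labelled BTG1 shRNA 1791 of them were higher (10%) and 1343 lower (7.51%). Counts in the gene lists below are to be read against these shares. Of the called clusters, 1366 were more than 2-fold higher and 1129 more than 2-fold lower, and 64 and 97 passed 16-fold. The count fell by over 1.5 times when 1 of 3 arrays was left out, to 1934 or 2066 without an array labelled BTG1 shRNA and to 1746 without the control array of replicate 2. The correlation between a control and a BTG1-labelled array ran from 0.881 to 0.902, against 0.985 within the controls and 0.984 within the arrays labelled BTG1 shRNA. Array 2 with that label was nearer to the vehicle arrays of the same label (0.992 and 0.995) than to its own replicate. The 2 vehicle controls agreed least, with a correlation of 0.960. The median absolute difference between them was 0.44, against 0.18 to 0.25 within the other groups. They enter every vehicle difference and every change with the drug. Without vehicle control array 1 the median change over all clusters was 0.08 in place of 0.20.

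Many calls involved a low level in the group with the lower value. For 829 clusters called higher, the control arrays were at or below the array median, and for 672 called lower, the arrays labelled BTG1 shRNA were. A median splits the clusters of an array evenly, so these counts alone show no excess of low levels among the calls. The files hold no background measure, so a level in that range may be background, and a fold against it is no exact ratio. Both sides were above the median for 1481 called clusters, where a change in level can be read more safely.

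The highest genes on the arrays labelled BTG1 shRNA were led by TSPAN7, a tetraspanin, and by the 3 CD3 chains of the T-cell receptor. TSPAN7 read 3.43 and 3.27 on the controls and 11.82 and 11.94 on the BTG1-labelled arrays, a difference of 8.53 ± 0.27. CD3G read 3.05 and 3.07 against 11.35 and 11.64, CD3D 3.31 and 3.24 against 10.97 and 11.23. CD3E read 3.98 and 4.10 against 10.52 and 11.29. On the controls all 4 genes were at or below the array median. That the groups do not overlap was a condition for choosing these genes, so it is no result.

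The next genes in that order were SH2D1A, the adaptor SAP, at 6.39, the retinaldehyde dehydrogenase ALDH1A2 at 6.27, NETO2 at 6.15 and then the NKG2D ligand ULBP1. ITM2A, USP44, the lysophosphatidylserine receptor GPR174 and the T-cell receptor adaptor TRAT1 followed at 5.97, 5.71, 5.70 and 5.61. These 8 were at or below 4.68 on both control arrays and between 7.92 and 10.28 on the arrays labelled BTG1 shRNA.

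At the other end stood FLT3, a receptor tyrosine kinase of lymphoid precursors, with 10.75 and 10.87 on the controls and 3.22 and 3.13 on the arrays labelled BTG1 shRNA. PROM1, the stem cell surface protein CD133, differed by -7.53, CD74, the invariant chain of MHC class II, by -7.42 and the tetraspanin CD9 by -6.82. The remaining genes among the 12 lowest were H2BC3, OGFRL1, IL7R, PRSS12, HLA-DRA, IRAK3, GAB1 and MEF2C, from -7.58 to -6.26. Histone genes such as H2BC3 have near-identical copies, so their probes may read several of them.

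**Figure D1:**
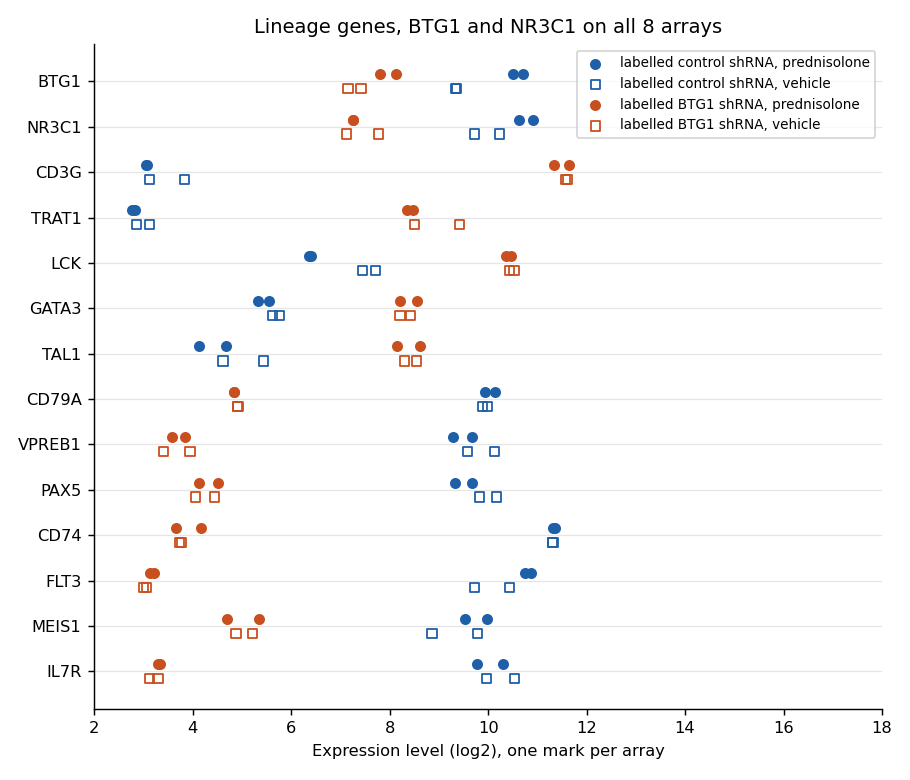
Log2 expression of BTG1, NR3C1 and 12 lineage genes on each of the 8 arrays (horizontal axis), with filled circles for prednisolone, open squares for vehicle, blue for the control shRNA label and orange for the BTG1 shRNA label. The colours separate for every gene shown, and for CD3G the arrays labelled BTG1 shRNA sit at 11.35 or above and the prednisolone controls at 3.07 or below.

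Among genes above the median on all 4 arrays the largest differences were smaller. CHI3L2, a chitinase-like secreted protein, read 5.28 and 6.42 on the controls and 10.62 and 10.89 on the arrays labelled BTG1 shRNA. GRK3, a kinase of G protein-coupled receptors, differed by 4.81, DHCR7, the last enzyme of cholesterol synthesis, by 4.20, the actin-binding calponin CNN2 by 4.13 and LCK, the kinase that starts T-cell receptor signalling, by 4.03. CD82, VAT1, RTL6, MYO7B, FKBP4, MFHAS1, LPXN, FMNL1, SCD and SPATC1L followed, from 3.68 for CD82 downward. In the other direction H3C3 and H2AC8, again histone genes with close copies, differed by -4.72 and -4.16.

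CD38, an ectoenzyme of precursor lymphocytes, read 9.24 and 9.70 on the controls and 5.38 and 5.84 on the arrays labelled BTG1 shRNA. The actin-severing gelsolin (GSN) differed by -3.74, the NF-kB inhibitor NFKBIA by -3.66, the TGF-beta receptor TGFBR2 by -3.59 and NR3C1 by -3.51. TAPT1, CD96, ZNF107, ZHX2, IRAG2, SLC44A1, WDR91 and LONRF1 completed the 15 lowest, between -3.47 and -3.28. For LONRF1 and SLC44A1 the difference under vehicle was -0.48 and -0.75 and passed no test.

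T-lineage genes were the clearest group on the high side. Of 11 measured members of the T-cell receptor complex and T-cell surface, 9 were higher and 0 lower, with a median difference of 3.51 where the median of all clusters was 0.04. Beside the CD3 chains these were TRAT1, the costimulator CD28 (4.87), the zeta chain CD247 (3.51), CD6 (2.90), CD5 (2.77) and CD7 (2.15). CD7 was well above the median on the controls too, at 7.55 and 7.18 against 9.59 and 9.44. CD2 (2.95 and 2.86 against 3.02 and 2.87) and the pre-T-cell receptor chain PTCRA (5.98 and 5.64 against 5.85 and 5.55) had nearly the same levels in both groups. For CD2 these levels were at or below the array median. TRAC and CD27 were not analysed here.

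The signalling chain below that receptor shared the direction in 10 of 16 measured members, with a median of 1.85. LCK was above the median on the controls too, with a mean of 6.38 against 10.42. ZAP70, the kinase that LCK activates, read 7.47 and 7.14 against 8.76 and 8.87, a difference of 1.51 ± 0.19. RASGRP1, which links the receptor to RAS, differed by 3.53 and the adaptor LCP2 (SLP-76) by 2.04. PAG1, a membrane scaffold that recruits the inhibitory kinase CSK, went the other way, from 10.02 and 10.14 to 5.18 and 5.23. It was the 1 lower member, and the negative regulators UBASH3A (2.80), PTPN22 (2.37) and SIT1 (2.15) were higher.

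Surface antigens of thymocytes were split. The CD1 family, lipid-presenting molecules of cortical thymocytes, was higher for all 5 members, led by CD1E (4.99) and CD1A (4.83), as was CD8B (1.52). CD1A read 3.73 and 3.26 on the controls and 8.67 and 7.98 on the arrays labelled BTG1 shRNA. CD1B and CD8B stayed at or below the array median in both groups despite their calls. CD44 (-3.38) and CD38 (-3.86) were lower. CD4 (3.76 and 3.63 against 3.95 and 3.80) and CD8A (5.21 and 4.99 against 5.42 and 5.08) differed by 0.18 and 0.15 without a call.

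Of 13 measured T-lineage transcription factors and Notch genes, 11 were higher and 0 lower, and 8 to 11 were called when an array was left out. TOX, a thymic selection factor, read 3.42 and 3.43 against 8.82 and 9.24, and BCL11B, which commits precursors to the T lineage, differed by 3.72 ± 0.34. DTX1, a Notch target, differed by 3.61, and GATA3, a master regulator of T cells, read 5.55 and 5.33 on the controls and 8.20 and 8.55 on the arrays labelled BTG1 shRNA. The receptors NOTCH3 and NOTCH1 were higher by 1.83 and 1.29. Among 10 measured oncogenes of T-cell leukemia, TAL1 read 4.67 and 4.14 against 8.62 and 8.14, while the related LYL1 (-1.95) and HHEX (-1.54) were lower.

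B-lineage genes held the opposite place. Of 11 measured members of the pre-B-cell receptor and its signalling, 0 were higher and 9 lower, with a median of -3.79. The surrogate light chain gene VPREB1 read 9.29 and 9.67 on the controls and 3.84 and 3.58 on the arrays labelled BTG1 shRNA. CD79A, the receptor's signalling chain, read 10.15 and 9.94 against 4.83 and 4.85, and the kinase BTK 9.07 and 8.85 against 3.05 and 2.95. CD79B (-4.51), LYN (-5.22), BLK (-3.79) and VPREB3 (-3.49) were lower too. All 7 of these were at or below the array median on the arrays labelled BTG1 shRNA. SYK, a kinase that T cells use as well, differed by only -0.91 and lost its call under 4 of 15 alternatives.

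The E-box CACCTG is the site bound by E2A, the B- and T-lineage factor encoded by TCF3. TCF3 itself read 9.91 and 9.75 on the controls against 9.19 and 8.82, a lower call that was lost under 6 of 15 alternatives. The E-box was searched on both strands in the 250 bases before the gene starts that RefSeq lists on GRCh38.p14. It occurred in 6 of the 8 pre-B-cell receptor genes found there, against 20.6% of 27305 genes. It also occurred in 3 of 6 genes of the T-cell receptor complex, whose called members were all higher, and in 4 of 7 B-cell surface genes. The motif and the lists were picked after the values had been seen, and a match is a description of the letters. The stretches before VPREB1 (chr22:22244553-22244618, plus strand) and CD79A (chr19:41877068-41877133, plus strand) are shown as the 2 genes of the receptor itself with the largest differences, 5′ to 3′, with the match (here CAGGTG, its reverse complement) in capitals.
VPREB1: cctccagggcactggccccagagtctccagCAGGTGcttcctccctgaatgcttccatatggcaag
CD79A: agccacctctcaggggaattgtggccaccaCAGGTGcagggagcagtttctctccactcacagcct

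The factors that set up the B lineage were lower in 10 of 15 cases and higher in 1. EBF1 read 10.15 and 10.48 on the controls and 4.78 and 4.76 on the arrays labelled BTG1 shRNA, PAX5 9.67 and 9.34 against 4.52 and 4.12. MEF2C differed by -6.26 and IRF4 by -3.88. The higher gene was IKZF3, Aiolos, at 3.69 and 3.40 against 6.02 and 6.47. IKZF1 and BACH2, which both lineages express, differed by -0.18 and 0.49 without a call.

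B-cell surface proteins were lower for CD9, CD72 (-5.07), CD24 (-5.10), CD37 (-3.69) and CD22 (-3.25), 5 of 11 measured, and CR2 was higher at levels below the median. CD34 and MME (CD10) differed by -0.06 and 0.04, and CD34 was at or below the array median in both groups. In V(D)J recombination, the joining of receptor gene segments, LIG4 was higher by 3.67 ± 0.23, from 4.62 and 4.82 to 8.37 and 8.42. The 4 lower genes of 8 measured (RAG2, DNTT, DCLRE1C and PRKDC) became 0 without array 1 labelled BTG1 shRNA or control array 2, 1 without control array 1 and 2 without array 2 labelled BTG1 shRNA.

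Of 11 measured genes tied to MLL fusions, 9 were lower and 0 higher, with a median of -2.06. MEIS1, the HOX cofactor that MLL fusions switch on, read 9.52 and 9.97 on the controls and 4.70 and 5.36 on the arrays labelled BTG1 shRNA. ZEB2 differed by -4.08, and CSPG4, the NG2 antigen, read 6.23 and 5.92 against 4.54 and 3.87. LGALS1 (-2.06) and RUNX2 (-1.40) stayed above the median in both groups. HOXA9 and 7 other HOXA genes were not analysed here.

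Antigen presentation by MHC class II was lower in 7 of 10 measured members and higher in 0 (median -3.26). CIITA, the master activator of the pathway, differed by -2.91 ± 0.24. HLA-DRA read 9.28 and 9.75 against 3.16 and 2.81 and HLA-DPA1 9.75 and 9.97 against 3.59 and 3.68. RFX5 and RFXAP, factors at the same promoters, were not called. HLA genes are close relatives, so probes may be shared between them.

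In MHC class I presentation 8 of 11 measured genes were lower and 1 higher, but none was at or below the median on all arrays. HLA-E read 10.09 and 10.01 on the controls and 7.85 and 8.19 on the arrays labelled BTG1 shRNA. ERAP1, the trimming peptidase, differed by -2.18, HLA-F by -3.02 and NLRC5, the class I activator, by -1.33. The chaperone calreticulin (CALR) was higher by 1.18. The 8 became 5 and 4 without array 1 or 2 labelled BTG1 shRNA and 4 without control array 2, and TAP1, PSMB8, TAPBP and B2M were among those that lost the call.

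**Figure D2:**
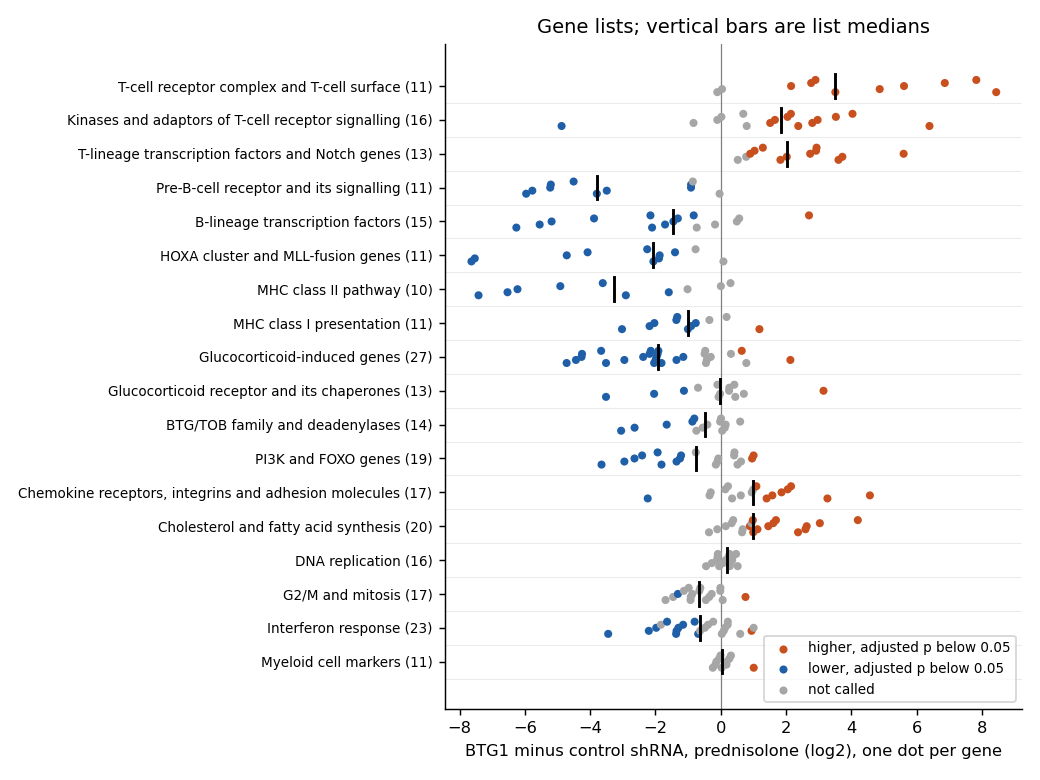
Differences under prednisolone (arrays labelled BTG1 shRNA minus control shRNA, log2, horizontal axis) for the measured genes of 18 lists, with the number of genes in parentheses. Orange and blue dots passed an adjusted p of 0.05, grey dots did not, and bars mark the median, from 3.51 for the T-cell receptor complex to -3.79 for the pre-B-cell receptor.

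NR3C1, the receptor itself, was lower under prednisolone. It read 10.63 and 10.90 on the controls and 7.25 and 7.25 on the arrays labelled BTG1 shRNA. The groups stood far apart, and the difference of -3.51 ± 0.28 is 11.4-fold (adjusted p = 0.000133). Under vehicle it was -2.53, and the 2 differences did not pass the test of being unequal (-0.99 ± 0.39, adjusted p = 0.532). Leaving out any single array gave NR3C1 differences from -3.65 to -3.38. The related mineralocorticoid receptor NR3C2 was lower too (-1.13), at or below the median on the arrays labelled BTG1 shRNA.

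Among the receptor's chaperones the 2 immunophilins went opposite ways. FKBP4 (FKBP52), which favours receptor transport, read 5.66 and 5.46 on the controls and 8.61 and 8.81 on the arrays labelled BTG1 shRNA, a difference of 3.15 ± 0.26. FKBP5 (FKBP51), its competitor and a classic glucocorticoid target, read 10.83 and 11.28 against 8.80 and 9.22, a difference of -2.04 ± 0.35. The FKBP5 cluster also carries the symbol LOC285847. HSP90AA1, HSPA8, HSPA4, DNAJA1, STIP1 and the other measured chaperones were not called, with differences between -0.70 and 0.71.

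Of 11 measured coregulators, 3 were lower and 0 higher, where 7.51% and 10% of all clusters were. NCOA2 (GRIP1), a coactivator of the receptor, was lower by -2.22 ± 0.28 and stayed above the median in both groups. NRIP1 (RIP140) differed by -2.92 and the acetyltransferase CREBBP by -1.05. PRMT1, the methyltransferase that BTG1 binds, read 8.42 and 8.52 against 8.67 and 9.28, a difference of 0.51 ± 0.25 without a call (adjusted p = 0.259). Its cluster also carries the symbol ADM5.

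In the BTG/TOB family and the deadenylases, 5 of 14 measured genes were lower and 0 higher, where 7.51% and 10% of all clusters were. PAN3, a subunit of the PAN2-PAN3 poly(A) nuclease, was the lowest, at 11.27 and 11.53 on the controls against 8.42 and 8.28. It was lower than BTG1 itself in this order, with a difference of -3.05 ± 0.32, and by -2.65 under vehicle. BTG3 and TOB2 differed by 0.04 and -0.02. TOB1, CNOT4 and CNOT6L passed the test but lost it under 4 or more alternatives, so the count ran from 2 (without array 1 labelled BTG1 shRNA or control array 2) and 3 (without array 2 labelled BTG1 shRNA or control array 1) to 6.

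The next list holds genes that glucocorticoids are known to induce. Of 27 measured, 18 were lower and 2 higher on the arrays labelled BTG1 shRNA, with a median of -1.93. Under vehicle 10 were lower and 2 higher, with a median of -0.42. The difference between treatments was negative for 21 of the 27, with a median of -1.02 against 0.20 over all clusters. That quantity uses all 8 arrays and equals the drug response of the BTG1-labelled arrays minus that of the controls. The list was drawn up with earlier results of these arrays known. Neither its direction nor the size of its change with the drug is therefore independent evidence. Of the 2 higher genes, TNFAIP3 lost its call without any 1 of the 6 arrays other than the vehicle controls.

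SGK1, a kinase that glucocorticoids induce in many tissues, read 8.48 and 9.07 on the controls and 3.91 and 4.20 on the arrays labelled BTG1 shRNA. The 4 vehicle arrays lay between 3.81 and 4.20. The control arrays with drug therefore stood alone. P2RY14, a receptor for UDP-glucose, showed the same layout, with a mean of 7.12 on the controls against 2.85 and vehicle arrays between 2.64 and 3.25. RASSF4 followed it, with 8.04 and 7.70 against 3.84 and 3.78.

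TSC22D3 (GILZ), an anti-inflammatory target of the receptor, read 9.51 and 9.43 on the controls and 5.31 and 5.14 on the arrays labelled BTG1 shRNA. Here the groups also stood apart under vehicle, at 6.79 and 6.81 against 4.29 and 4.18. NFKBIA read 10.85 and 10.76 against 7.09 and 7.19. GSDME, the pore-forming gasdermin E, read 8.53 and 9.16 against 4.40 and 4.42. PER1, a clock gene with response elements, read 7.69 and 7.44 against 5.52 and 5.62, with vehicle values of 5.91 and 5.62 against 5.73 and 5.77.

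Further down the list PIK3IP1, an inhibitor of PI3 kinase, differed by -2.95, ISG20 by -2.38, BCL6 by -2.18, KLF9 by -1.97, DDIT4 (REDD1) by -1.93 and GADD45B by -1.91. DUSP1, a phosphatase of MAP kinases, read 9.41 and 9.38 on the controls and 7.95 and 8.12 on the arrays labelled BTG1 shRNA, and its difference under vehicle, -1.71, was no smaller. ZBTB16 (PLZF) was higher by 2.13 ± 0.30, and by 2.96 under vehicle. CXCR4, KLF13, ZFP36, ZFP36L2, CEBPD, ERRFI1 and TFPI were not called, with differences between -0.49 and 0.78.

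**Figure D3:**
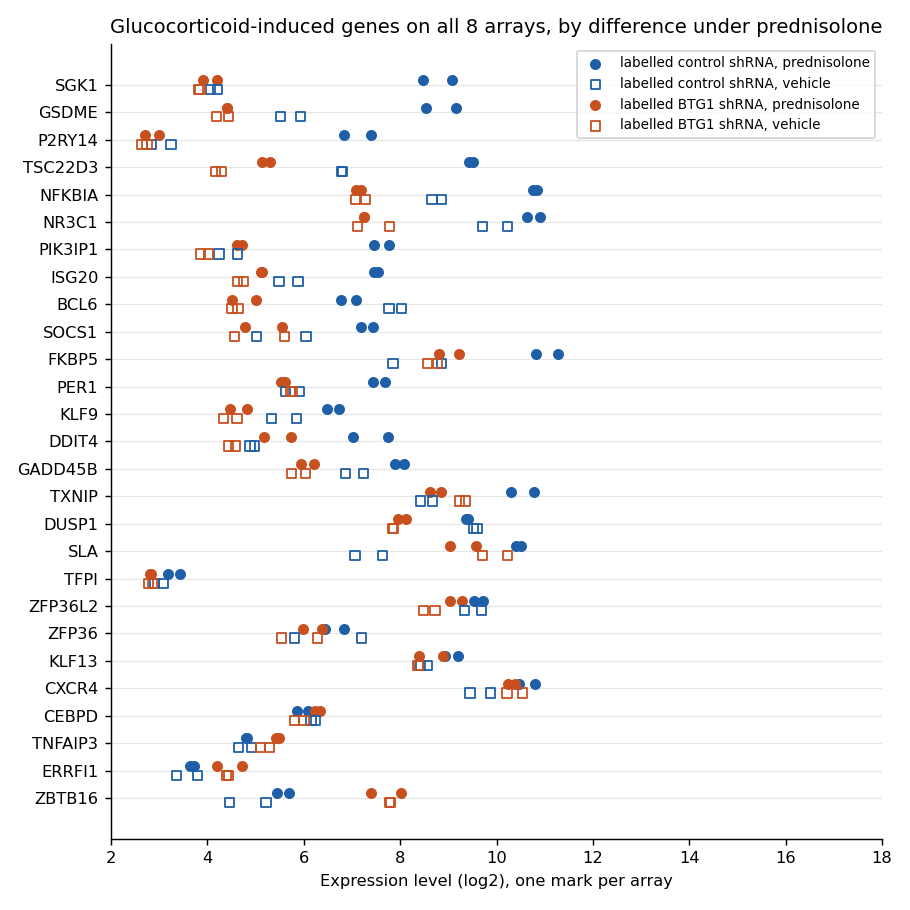
Log2 expression of the 27 measured glucocorticoid-induced genes on each of the 8 arrays (horizontal axis), ordered by the difference under prednisolone, with filled circles for prednisolone, open squares for vehicle, blue for the control shRNA label and orange for the BTG1 shRNA label. For SGK1 the filled blue circles at 8.48 and 9.07 stand apart from the other 6 marks, and for DUSP1 the colours separate under both treatments.

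TXNIP, an inhibitor of thioredoxin and of glucose uptake, read 10.31 and 10.78 on the controls and 8.84 and 8.62 on the arrays labelled BTG1 shRNA, a difference of -1.81 ± 0.22. Under vehicle the order was the opposite, 8.42 and 8.67 against 9.35 and 9.23, without a call. The palindrome of the glucocorticoid response element, searched as GNACANNNTGTNC on both strands in the same windows, occurred before TXNIP and before 0 of the other 22 list members found in the table, against 0.399% of 27305 genes. This says nothing about sites farther away or with other letters. The stretch is at chr1:145996712-145996784 on the minus strand of GRCh38.p14, from 205 to 132 bases before the start, with the match in capitals.
TXNIP: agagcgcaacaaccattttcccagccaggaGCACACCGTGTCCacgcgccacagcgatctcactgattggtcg

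Calls shared by the 2 treatments nearly all had the same direction. Under vehicle 2623 clusters were called (14.7% of those tested), and 1872 were called under both, 59.7% of the calls under prednisolone and 71.4% of those under vehicle. The direction was the same for 1857 and opposite for 15. Of the 1262 called under prednisolone alone, 1138 had the same sign under vehicle. The differences in these 2 comparisons come from separate arrays but share their labels and the lineage difference. Their tests are not separate, because the fit to all arrays of the series gave both a common estimate of the spread for each cluster. The overlap of the calls is therefore not an overlap of independent tests.

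The test of the difference between treatments called 24 clusters (0.134%), 19 with a more negative and 5 with a more positive difference under prednisolone, and 1664 had an unadjusted p below 0.05. It was the result that rested most on individual arrays. The count was 0 without either prednisolone array or either vehicle array labelled BTG1 shRNA and without prednisolone control array 2, and 7 without prednisolone control array 1. Without vehicle control array 2 it was 15.

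Of 19 genes called both under prednisolone and in that test, 17 had the more negative difference. SGK1 (-4.42 ± 0.33), P2RY14 (-3.92), RASSF4 (-3.90), SLA (-3.76), NDRG2 (-3.52), GSDME (-3.02), CEMIP2 (-2.89), RIN2 (-2.84), SMIM3 (-2.77) and TXNIP (-2.56) led it. The 2 with the more positive difference were IL1B (3.41) and the urokinase receptor PLAUR (2.24). On the arrays labelled BTG1 shRNA the drug moved these 12 genes less than on the controls, from -0.66 for SLA to 0.22 for SGK1. On the controls it moved SGK1 by 4.64 and IL1B by -3.19. The genes were chosen by the size of this change, so the smaller response is no separate result. Nor is it particular to them. Of all 17881 clusters, 2526 on the controls had an unadjusted limma p below 0.05 for the drug response. On the arrays labelled BTG1 shRNA 186 had.

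NDRG2, a stress-responsive gene of the NDRG family, crossed over. It read 8.29 and 8.28 on the controls and 6.28 and 6.51 on the arrays labelled BTG1 shRNA under prednisolone, and 4.84 and 4.72 against 6.36 and 6.44 under vehicle. CEMIP2 (-2.02 under prednisolone, 0.87 under vehicle), XPR1 (-1.77 and 1.11), SLC31A2 (-0.91 and 1.26), PLAUR (1.04 and -1.19) and FAM117A (0.84 and -0.83) were likewise called in opposite directions under the 2 treatments. There were 13 such genes with a symbol of their own. IL1B kept its direction, though it was at or below the median on all 4 prednisolone arrays, at 4.91 and 5.03 against 3.62 and 3.26 with drug and 7.96 and 8.37 against 3.18 and 3.28 without.

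**Figure D4:**
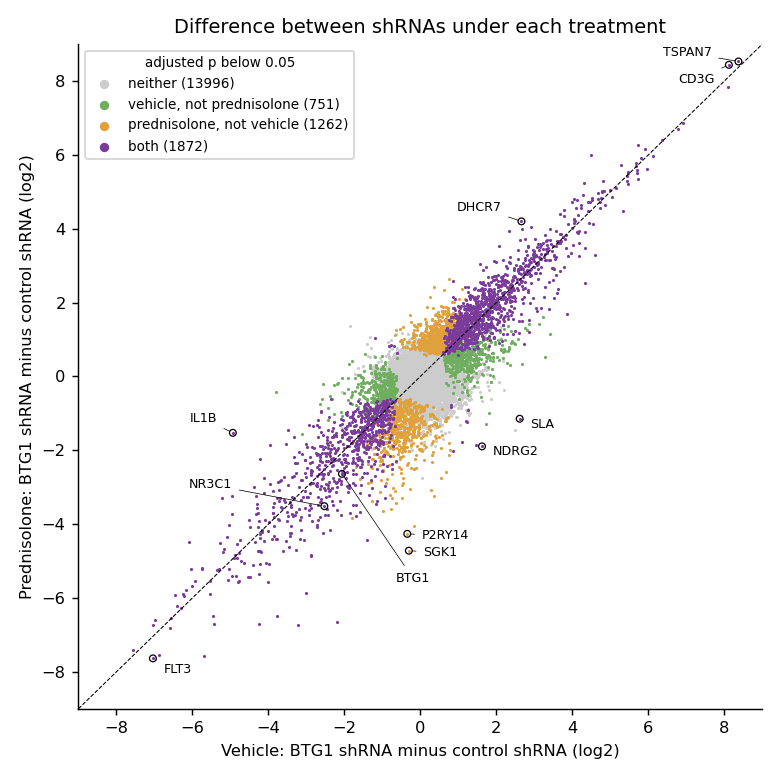
Difference between the BTG1 and control shRNA labels (log2) under vehicle (horizontal axis) and under prednisolone (vertical axis), 1 dot per cluster, coloured by which comparison called it at an adjusted p of 0.05, with the line of equal difference dashed. Most of the 1872 clusters called under both follow the line, while SGK1 and P2RY14 lie below it and IL1B above.

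Cholesterol synthesis was higher on the arrays labelled BTG1 shRNA. Of 20 measured genes of sterol and fatty acid synthesis, 12 were higher and 0 lower under prednisolone, with a median of 0.99, and 8 to 14 were called when an array was left out. Under vehicle 3 were higher, with a median of 0.43. The difference was more positive under prednisolone than under vehicle in 19 of 20 genes. The median of that change was 0.88, against 0.20 over all clusters. In limma's test of the change 0 of the 20 passed, and 10 had an unadjusted p below 0.05.

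DHCR7 read 7.44 and 7.21 on the controls and 11.61 and 11.45 on the arrays labelled BTG1 shRNA. The desaturase SCD read 7.49 and 8.25 against 10.87 and 10.94, and MVD, of the mevalonate pathway, 7.12 and 6.61 against 9.65 and 9.35. LSS, which closes the sterol rings, differed by 2.59 ± 0.18 and HMGCS1, the entry enzyme of the mevalonate pathway, by 2.37 ± 0.40. SREBF1, which encodes a master regulator of lipid synthesis, differed by 1.69. IDI1, SC5D and PMVK differed by -0.36, -0.11 and 0.15 without a call. LSS came nearest to a call for growth with the drug, at 1.72 ± 0.26 (adjusted p = 0.0717).

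ATTGG, the reverse complement of the CCAAT box bound by NF-Y, a factor that works beside the sterol regulators, was searched in the same windows on both strands. It occurred before 16 of 18 genes of the list found in the table, against 37% of 27305 genes. It was as common before genes of G2 and mitosis, 12 of 13, and the motif was chosen after the values had been seen. The stretches shown lie on GRCh38.p14, all on the minus strand, before DHCR7 (chr11:71448407-71448517), LSS (chr21:46228890-46228954) and HMGCS1 (chr5:43313478-43313597), with the matches in capitals on either strand.
DHCR7: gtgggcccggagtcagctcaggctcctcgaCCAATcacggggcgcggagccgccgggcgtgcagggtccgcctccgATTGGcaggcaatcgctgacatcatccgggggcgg
LSS: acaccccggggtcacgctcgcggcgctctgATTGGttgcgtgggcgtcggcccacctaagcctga
HMGCS1: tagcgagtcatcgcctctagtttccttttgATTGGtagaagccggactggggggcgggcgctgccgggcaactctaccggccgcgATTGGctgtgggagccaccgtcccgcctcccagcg

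**Figure D5:**
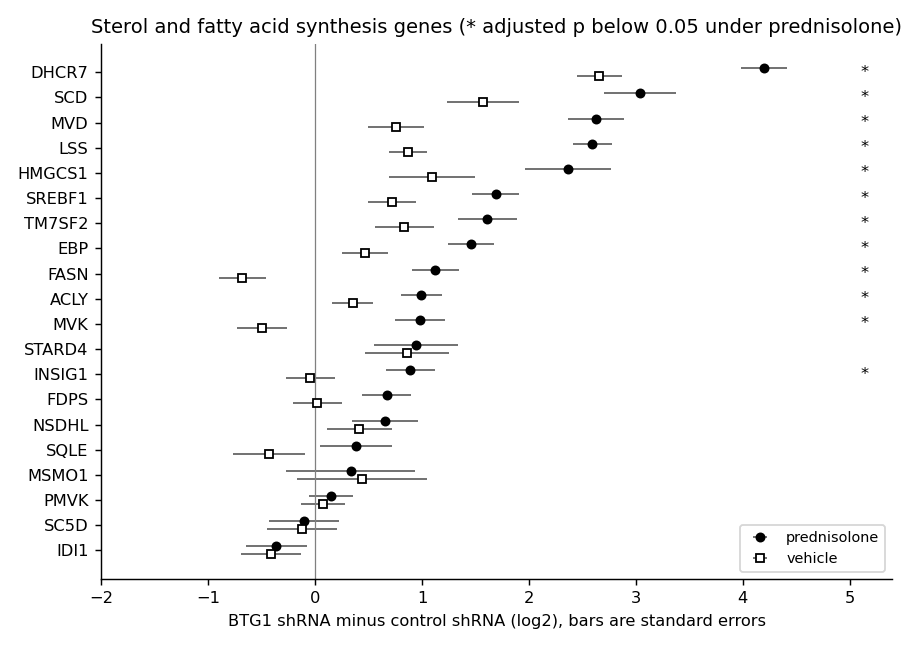
Difference between the BTG1 and control shRNA labels (log2, horizontal axis) for 20 genes of sterol and fatty acid synthesis, with filled circles for prednisolone, open squares for vehicle and bars for the standard error of the fit. DHCR7 lies at 4.20 and 2.66, and LSS at 2.59 and 0.87.

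Apoptosis genes had no common direction. Of 12 measured pro-apoptotic BCL2 relatives, 3 were higher and 2 lower, where 10% and 7.51% of all clusters were. BCL2L11 (BIM) read 5.45 and 5.88 on the controls and 4.80 and 5.13 on the arrays labelled BTG1 shRNA, so the groups did not overlap, but the difference of -0.70 ± 0.22 did not pass the test (adjusted p = 0.073). BNIP3L was higher by 1.52, and BNIP3, which has close copies in the genome, by 3.25. PMAIP1 (NOXA) differed by -2.25 and BAX, a pore-forming effector, by -0.86. These 2 lower calls became 1 without either array labelled BTG1 shRNA or control array 1, where BAX lost its call, and 0 without control array 2.

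Of the 3 measured survival members, BCL2L1 (BCL-XL) was higher, at 7.22 and 7.05 against 9.06 and 8.85, and BCL2 lower, at 7.58 and 7.89 against 6.46 and 5.93 (-1.54 ± 0.29, adjusted p = 0.00867). BCL2L2 (BCL-W) differed by -1.11. The 2 lower calls became 0 without array 2 labelled BTG1 shRNA or control array 2, and 1 without either vehicle array with that label. CFLAR (FLIP), the inhibitor of caspase 8, differed by -1.65, cytochrome c (CYCS) by 1.68 and the death receptor TNFRSF10B by 1.91. APAF1 and FAS passed the test but lost it under 8 of their 15 and 14 alternatives.

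In PI3K and FOXO signalling 9 of 19 measured genes were lower and 2 higher. INPP5D (SHIP1), a phosphatase that restrains PI3K in lymphocytes, read 9.27 and 9.38 on the controls and 6.85 and 6.98 on the arrays labelled BTG1 shRNA. The leukocyte subunits PIK3CG (-2.64) and PIK3CD (-1.35) were lower together with FOXO1 (-1.25) and the FOXO target SESN1 (-3.65). SESN1 read 5.47 and 6.10 on the vehicle controls and 8.01 and 8.95 with drug. The 2 higher genes, PIK3R5 and SESN3, became 0 without array 1 labelled BTG1 shRNA or control array 2, and 1 without control array 1 or either vehicle array labelled BTG1 shRNA.

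Cytokine receptors were mixed. IL7R, which drives growth of lymphoid precursors, read 9.77 and 10.30 on the controls and 3.29 and 3.34 on the arrays labelled BTG1 shRNA. IL6ST (gp130) read 8.22 and 8.88 against 4.87 and 5.78, while its vehicle difference was 0.36, and the test of the change with the drug gave -3.59 ± 0.58 (adjusted p = 0.0913). KIT was higher by 2.56 and STAT3 by 1.47. In this list of 21 the counts of 5 higher and 4 lower moved to 2 and 2 without array 2 labelled BTG1 shRNA or without control array 2, and the 5 to 3 and 2 without array 1 of either label.

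Adhesion and homing genes were higher in 8 of 17 measured cases and lower in 1, with 8 to 10 higher under the left-out arrays. SELPLG, the P-selectin ligand, read 3.40 and 3.47 on the controls and 7.72 and 8.28 on the arrays labelled BTG1 shRNA. S1PR1, the exit receptor of lymphocytes, differed by 3.27 and the LFA-1 chains ITGAL and ITGB2 by 2.15 and 1.58. ICAM2, a ligand of LFA-1, read 7.81 and 7.67 against 9.64 and 9.56, with a vehicle difference of 0.32. CD58, the ligand of CD2, was the lower gene (-2.24).

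Of 16 measured genes of DNA replication, 0 were called under prednisolone by limma and 0 had an unadjusted p below 0.05, with a median of 0.20 and differences from -0.45 (MCM4) to 0.52 (MCM10). Of 17 genes of G2 and mitosis, 1 was higher and 1 lower, with a median of -0.66 and 15 of 17 below 0, and 8 had an unadjusted p below 0.05. Under vehicle the median of that list was 0.24, measured against the 2 vehicle controls, the pair that agreed least of the 4 groups. CENPE (-1.69), KIF11 (-1.46) and CENPF (-1.13) had the largest of those differences without a call. With 1 array left out, lower calls in that list ran from 0 (without either prednisolone array labelled BTG1 shRNA or control array 2) to 4 (without either vehicle control array), and over all alternatives from 0 to 8. The higher gene, UBE2C, lost its call without any 1 of the 6 arrays other than the vehicle controls. MYC read 8.32 and 8.53 on the controls and 9.35 and 9.36 on the arrays labelled BTG1 shRNA (0.93 ± 0.19, adjusted p = 0.0137), and lost its call under 5 of 15 alternatives. CCND2 was higher by 2.54 and the inhibitor CDKN1A (p21) lower by -1.96.

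In glycolysis ENO2, the neuronal enolase, was higher by 4.95 ± 0.25 from a level below the median, and ALDOC differed by 2.70. PFKM, the muscle phosphofructokinase, read 7.83 and 7.71 against 4.23 and 4.17. The abundant enzymes ENO1, TPI1, PKM and LDHB differed by 0.39, 0.16, -0.11 and 0.11 without a call. Of 17 measured genes 4 were higher and 1 lower, the latter 3 without either vehicle control array. Over all clusters 10% were higher and 7.51% lower.

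Interferon-response genes were lower in 10 of 23 measured cases and higher in 1, and 13 of the 23 were at or below the median in both groups. OAS2, an antiviral RNA sensor, read 6.89 and 6.58 on the controls and 3.39 and 3.19 on the arrays labelled BTG1 shRNA, and BST2 (tetherin) differed by -1.98. The 10 became 6 without control array 2. IFI6 was higher by 0.94, and lost its call without array 2 labelled BTG1 shRNA or control array 2. Over all alternatives the lower calls of this list fell to as few as 1. Those alternatives include leaving out dim clusters, which removes dim genes from the count.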

How the data were processed

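The deposited table holds log2 expression per transcript cluster of an Affymetrix exon array, made by robust multi-array averaging (RMA) in Partek per the submitters' processing notes, on hg18 core probe sets per the labels. Versions were not stated there. Its values had lost their decimal points, and 153 of 143048 kept one (2.47 to 12.25). The point was restored after digit 1, or after digit 2 for the 2831 values starting with 1. The highest restored value was 13.4. Restoring cannot be checked against raw signals here.

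Group means of all 8 arrays (4 groups of 2) were fitted with limma 3.58.1 in R 4.3.3, with empirical Bayes and Benjamini-Hochberg adjustment over 17881 clusters at 0.05, after a test on simulated data. The fit tests the difference under prednisolone, under vehicle, and between these. No pseudocount or filter was used. The number of arrays limits the precision. Symbols came from the platform annotation (14432 clusters with 1 symbol, 2408 with several, 1041 with none), and the brightest cluster stood for a gene. Genes were named as the 12 largest differences each way without overlap, the 15 largest each way above the array median, the 10 largest each way in the test between treatments, opposite calls, fixed genes (BTG1, NR3C1, FKBP5, TSC22D3, BCL2L11, BCL2, MYC, PRMT1) and list members. The members, lists and motifs were chosen with earlier results of these data known. Alternatives were quantile normalization, array medians subtracted, an intensity trend, dim clusters or values of 10 or more left out, the 4 arrays alone, a replicate block and each array left out. Deviations of same-numbered arrays correlated from 0.263 to 0.593 in 5 of 6 pairs of groups (0.415 between the 2 prednisolone groups) and at 0.007 in the other. The labels name nothing that the numbers share, and not every pair of groups passed 0.1, the level required, so the block stayed an alternative.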

Additional observations from a re-analysis of the deposited data

Results flagged for a closer look

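The difference between the 2 shRNA labels changed with the drug, by the limma test of that change over all clusters, for 17 genes described or listed here. The change was negative for SGK1 (-4.42), P2RY14 (-3.92), RASSF4 (-3.90), SLA (-3.76), NDRG2 (-3.52), GSDME (-3.02), CEMIP2 (-2.89), RIN2 (-2.84), SMIM3 (-2.77), TXNIP (-2.56), PIK3IP1 (-2.46), WDR91 (-2.36), SLC31A2 (-2.17) and NFKBIA (-2.08). It was positive for IL1B (3.41), PDGFRB (2.36) and PLAUR (2.24). All are on the log2 scale, as the difference under prednisolone minus that under vehicle. The test called 0 clusters without any 1 of the 4 arrays labelled BTG1 shRNA or without prednisolone control array 2.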

How the results depend on the processing

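The count under prednisolone (3134) ran from 1746 (without control array 2) to 3891 (without a vehicle control array) when an array was left out, with the lone array of a group assumed to vary like the others. The count under vehicle (2623) ran from 1289 to 5958. The count of changes between treatments (24) ran from 0 to 24, was 14 with array medians subtracted and 8 with clusters of values of 10 or more left out. With the replicate number as a block it was 96, and the counts under prednisolone and vehicle were 4321 and 4553. Under the same block BCL2L11 passed the test (-0.70, adjusted p = 0.0441, against 0.0441 to 0.42 over its alternatives), and lower calls among the G2 and mitosis genes were 8 in place of 1. Of 287 called genes tabulated, 209 kept call and direction under every alternative run and 0 reversed. Subtracting array medians moved the median of all clusters under prednisolone from 0.04 to -0.09, and 51.9% of calls were then higher against 57.1%.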
